A study of Mus musculus with 6 samples.

Results

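The 28 Hox genes described here were the rows of a mouse heart count table whose symbol is Hox, a cluster letter from a to d and a paralog number, out of 30619 rows in all. The GENCODE M21 annotation holds 39 such genes on the mm10 build, and the 11 others are not analysed here. Poly(A) RNA was sequenced from hearts at stage E12.5, in midgestation. The 3 CKO libraries came from embryos titled as a conditional knockout of TRIM28, a co-repressor that recruits heterochromatin factors to DNA, and the 3 CTR libraries came from wild-type embryos. The genotype field of these samples says knockdown, and the sample titles, which say CKO, were followed. The series concerns the growth of muscular ridges into the ventricles and the thickening of the ventricular wall. The sources used here do not give the Cre driver, the allele, the background strain or how many hearts went into a library. Nothing says that libraries of a group came from separate animals, so the p-values cover only the spread between the 6 libraries.

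Hox genes encode homeodomain transcription factors and lie in 4 clusters, a to d, in which the order along the chromosome follows the order of expression along the body axis. Anterior genes (paralog groups 1 to 4) are used in the hindbrain, neck and heart-forming region, and posterior ones (9 to 13) in the lower trunk, limbs and genitalia. HOX proteins bind DNA with PBX and MEIS partners, Polycomb proteins keep silent clusters repressed, and retinoic acid switches anterior genes on. In the mouse, anterior Hox genes mark progenitor cells of the second heart field that build the outflow tract and the atria, and neural crest cells and nerves that enter the heart also use Hox genes.

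The Hoxa cluster spans chr6:52155590-52260880 and gave 9 of its 11 annotated genes. The Hoxb cluster, chr11:96194316-96368256, gave 9 of 10. The Hoxc cluster, chr15:102921103-103036852, gave 4 of 9, and the Hoxd cluster, chr2:74668310-74765142, gave 6 of 9. All of these positions come from GENCODE M21 on mm10. Hoxa4 (chr6:52189671-52191753) and Hoxa5 (chr6:52201754-52204587) are neighbours on the minus strand, with starts 12834 bases apart. Both lie within the span annotated for Hoxa3 (chr6:52169062-52213336), whose exons share no base with those of Hoxa4 or Hoxa5.

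RefSeq promoter windows (build GRCm38.p6) were available for 17 of the 28 genes, in 18 windows, and included Hoxa5, one of the 2 genes whose level was called higher in CKO hearts, and Hoxb4, the gene with the most counts. They are shown because the first changed and the second did not pass the test, and they give the 250 bases before the start. The Hoxa5 window is chr6:52204588-52204837 on the minus strand. Its capitals mark a CCAAT box read on the opposite strand, which begins 204 bases before the start. The Hoxb4 window is chr11:96318017-96318266 on the plus strand. Its capitals mark a nuclear receptor half-site, AGGTCA, read on the opposite strand 81 bases before the start.
Hoxa5: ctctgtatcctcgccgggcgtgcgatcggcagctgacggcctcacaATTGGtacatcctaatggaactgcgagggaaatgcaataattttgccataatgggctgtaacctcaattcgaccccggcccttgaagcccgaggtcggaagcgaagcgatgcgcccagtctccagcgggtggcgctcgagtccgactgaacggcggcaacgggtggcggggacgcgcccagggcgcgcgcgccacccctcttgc
Hoxb4: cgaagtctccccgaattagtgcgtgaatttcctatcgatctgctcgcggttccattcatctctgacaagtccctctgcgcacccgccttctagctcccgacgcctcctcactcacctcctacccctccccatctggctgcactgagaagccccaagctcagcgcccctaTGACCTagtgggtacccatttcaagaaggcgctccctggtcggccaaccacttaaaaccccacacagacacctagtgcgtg
The Hoxa5 window had a G+C content of 63.6% and 28 CpG pairs, and the Hoxb4 window 58.0% and 14. The ratio of observed to expected CpG pairs was 1.11 for Hoxa5, the highest of the 18 Hox windows, and 0.76 for Hoxb4. Its median was 0.589 over the Hox windows and 0.373 over all 32851 windows. Searched on both strands of the same 250 bases, CCAAT was in 61.1% of Hox windows and 33.8% of all windows, and AGGTCA in 33.3% and 14%. The letters TATAAA were in 22.2% of Hox windows and 12.4% of all, and TGATNNAT, a site that HOX and PBX proteins bind together, in 16.7% and 7.68%. Neither printed window held TATAAA or TGATNNAT. These matches describe letters and were not tied to any binding data.

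The 28 Hox genes took 3491 counts in all, of libraries that held between 34400841 and 39763233 counts each. Anterior genes held 75.3% of the Hox counts, central genes (paralog groups 5 to 8) 20.9% and posterior genes 3.81%. By cluster, Hoxa genes held 51.6%, Hoxb 33.1%, Hoxd 7.85% and Hoxc 7.42%. The filter on low counts passed 14 genes, with totals over the 6 libraries of 48 to 606 counts, and left out 14 with totals of 1 to 46. It passed 9 of 11 anterior, 4 of 10 central and 1 of 7 posterior genes. Hoxa gave 6 of the tested genes, Hoxb 4, Hoxc 2 and Hoxd 2.

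**Figure D1:**
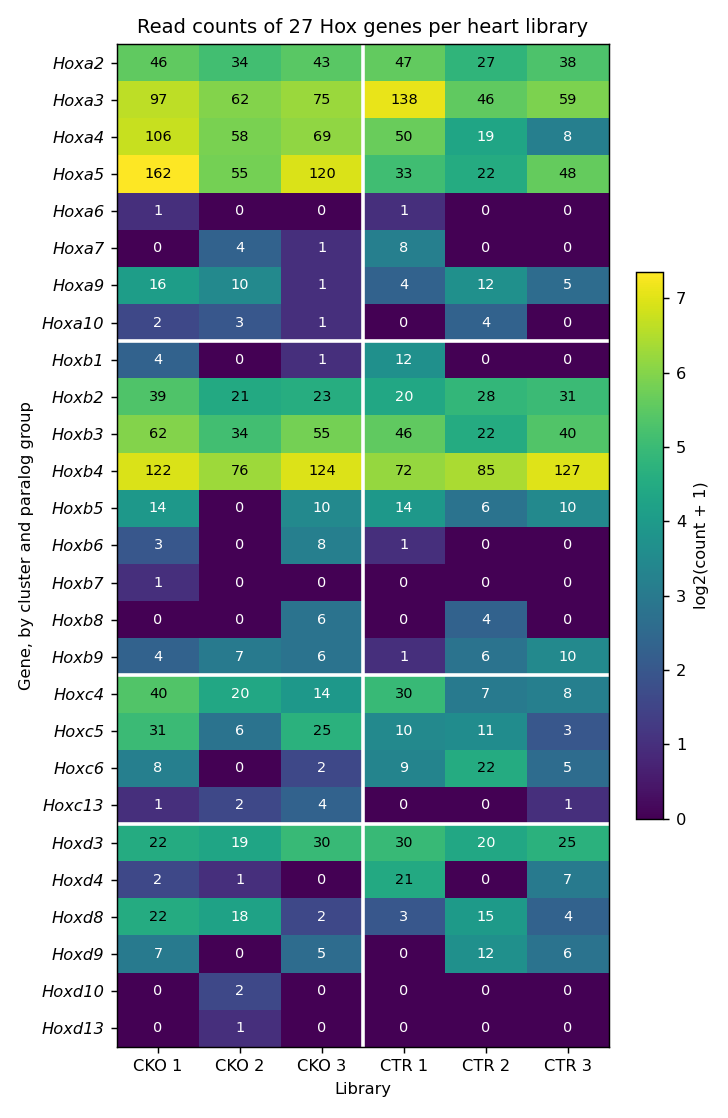
Read counts of 27 Hox genes (rows, by cluster and paralog group) in the 3 CKO libraries and the 3 CTR libraries (columns), coloured by log2(count + 1). The highest counts are those of Hoxa5 in CKO 1 (162) and Hoxa3 in CTR 1 (138), and rows of paralog group 6 and above hold at most 22 counts in any library.

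Several measures of the libraries moved with the groups or set single libraries apart. Trim28 had 6227, 10809 and 6543 counts in CKO 1 to 3 and 12153, 15059 and 16581 in CTR 1 to 3, a log2 fold change of -0.81 (SE 0.34) with an adjusted p of 0.339 in edgeR's quasi-likelihood test. At 314 CPM (counts scaled to the library size), the library labelled CKO 2 lay above CTR 1 (305 CPM), so every direction given here rests on the labels. A row of ribosomal RNA took 0.79%, 0.672% and 0.563% of the counts in CKO 1 to 3 and 0.522%, 0.222% and 0.126% in CTR 1 to 3. Xist, expressed from the inactive X chromosome, had 15232, 7 and 4 counts in CKO 1 to 3 and 24633, 36330 and 17569 in CTR 1 to 3. Ddx3y, on the Y chromosome, had 1382, 2597 and 2626 counts in the CKO libraries and 1153, 0 and 1604 in the CTR libraries. CKO 1, CTR 1 and CTR 3 had high counts of both genes and so held RNA of both sexes, and the mix of sexes differed between libraries. Xist was lower in every CKO library than in any CTR library, so the mix was not balanced between the groups. The part of these differences in the Hox results was examined only through the fits named beside them. Heart muscle genes had the largest totals of the context genes. Of 11 cardiomyocyte markers, 2 were called higher in CKO hearts and none lower, beside 3.03% and 1.07% of all tested genes. These were Myl7 and Myh6, which encode an atrial light chain and alpha myosin (log2 fold changes 0.53 and 0.33, adjusted p 0.00519 and 0.0103). Without CKO 2 there were 3 called higher and 1 lower, and Myh6 was called in 2 of the 6 fits without 1 library and not with Y-linked expression as a covariate (adjusted p = 0.0923).

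Hoxa5 and Hoxa4 had higher read counts in the CKO hearts, each by about 3-fold, and no Hox gene was called lower. These 2 of the 14 tested genes passed an adjusted p under 0.05, where 3.03% of all 17557 tested genes were called higher and 1.07% lower. Among the 4963 tested genes within the level range of the tested Hox genes, 47 were called in either direction, or 0.947%. By unadjusted p under 0.05, 3 Hox genes stood higher and 0 lower, beside 17.8% of all genes in either direction, and limma-voom and DESeq2 also called 0 lower. DESeq2 called the same 2 genes higher, beside 4.25% of all tested genes, and limma-voom 0, beside 2.82%. The log2 fold change was positive for 12 tested Hox genes and negative for 2, with a median of 0.38 beside 0.0035 for all tested genes. The tally depended on the fit. It was 11 to 3 with no scaling factor (Hoxa3 at -0.0034), 9 to 5 once the ribosomal RNA share was a covariate, where Hoxa2, Hoxa3 (-0.86) and Hoxc4 (-0.69) were negative, 10 to 4 without CKO 1 and 14 to 0 without CKO 2.

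Hoxa5, which in the mouse patterns the neck and upper chest skeleton and is needed for the lung and trachea, was one of the called pair. It had 162, 55 and 120 counts in CKO 1 to 3, and 33, 22 and 48 in CTR 1 to 3. In CPM these were 4.47, 1.60 and 3.03 in CKO hearts, against 0.828, 0.571 and 1.28 in CTR hearts. All 3 CKO libraries lay above all 3 CTR libraries, a separation in that direction seen for 11.5% of all tested genes. The nearest pair were CKO 2 and CTR 3, whose exact 95% Poisson intervals (1.20 to 2.08 CPM and 0.945 to 1.70 CPM), which cover counting error only, overlapped. Means were 3.03 ± 1.44 CPM in CKO hearts and 0.894 ± 0.360 CPM in CTR hearts (SD, n = 3 each). The fitted fold was 3.42, a log2 fold change of 1.77 (SE 0.39), with an adjusted p of 0.0163 (edgeR quasi-likelihood, Benjamini-Hochberg over all genes).

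Hoxa4, the paralog group 4 gene next to it, patterns the neck vertebrae in the mouse. It had 106, 58 and 69 counts in CKO 1 to 3, and 50, 19 and 8 in CTR 1 to 3. These came to 2.92, 1.69 and 1.74 CPM in CKO hearts, against 1.25, 0.493 and 0.214 CPM in CTR hearts. The groups did not overlap here either, but CKO 2 (95% Poisson interval 1.28 to 2.18 CPM) and CTR 1 (0.931 to 1.65 CPM) were close. The CTR libraries were ordered otherwise than for Hoxa5, since CTR 3 was lowest for Hoxa4 and highest for Hoxa5. Means were 2.12 ± 0.700 CPM in CKO hearts and 0.654 ± 0.539 CPM in CTR hearts (SD, n = 3 each), and the fitted fold of 3.17 was a log2 fold change of 1.67 (SE 0.44) with an adjusted p of 0.0378 by the same test. Of its exon bases, 16.0% are shared with the antisense gene Gm29430, which had 1, 0 and 0 counts in CKO hearts and 1, 0 and 4 in CTR hearts. Hoxa5 shares no exon base with another annotated gene.

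Both calls depended on single libraries, and both were lost with either covariate. Dropping each library in turn kept the call of each gene in 2 of 6 fits, with log2 fold changes of 1.40 to 2.11 for Hoxa5 (adjusted p 0.000178 to 0.0936) and 1.26 to 2.56 for Hoxa4 (adjusted p 0.0138 to 0.182). Without CKO 2, both were called, at 2.06 for Hoxa5 (adjusted p = 0.000178) and 1.79 for Hoxa4 (adjusted p = 0.0139). Hoxa4 was also called without CTR 1 (2.56) and Hoxa5 without CTR 3 (2.11). With the ribosomal RNA share as a covariate, Hoxa5 was at 1.89 (adjusted p = 0.410) and Hoxa4 at 0.24 (adjusted p = 0.946). Every CKO share lay above every CTR share (0.563% to 0.79% against 0.126% to 0.522%), so this fit cannot separate the share from the group. With Y-linked expression as a covariate, Hoxa5 was at 1.61 (adjusted p = 0.151) and Hoxa4 at 1.64 (adjusted p = 0.209). On a log2 scale that covariate was 0.037 in CTR 2 and 6.35 to 7.71 in the other libraries. This fit therefore mostly set CTR 2 apart and cannot stand as an adjustment for the mix of sexes. Without CTR 2, Hoxa5 was at 1.54 (adjusted p = 0.0936) and Hoxa4 at 1.49 (adjusted p = 0.173). In bulk RNA, more cells that express a gene and more of its RNA per cell cannot be told apart.

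**Figure D2:**
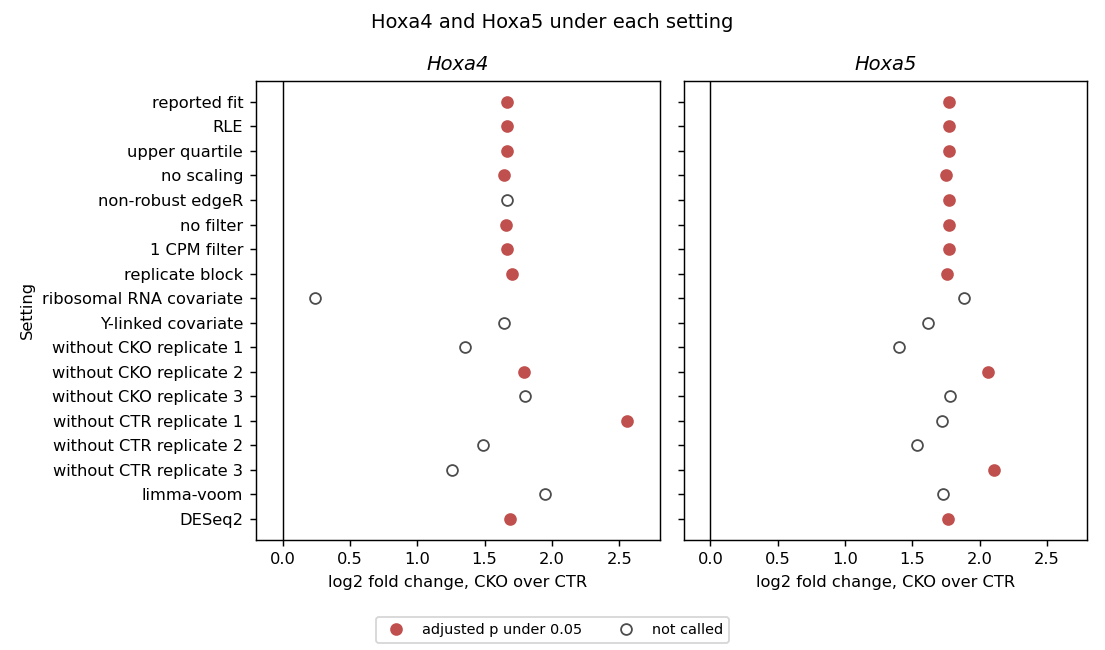
Log2 fold change (CKO over CTR) of Hoxa4 and Hoxa5 under the reported fit and each other setting, with filled points where the adjusted p was under 0.05. All points lie above 0, and the lowest is Hoxa4 with the ribosomal RNA covariate (0.24).

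The other Hoxa genes described gave no call. Hoxa2, which sets the identity of the second pharyngeal arch, had 1.11 ± 0.143 CPM in CKO and 0.965 ± 0.243 CPM in CTR hearts (0.21, SE 0.37, adjusted p = 0.840). The groups overlapped. Hoxa3, which patterns the third arch, thymus and parathyroid, had 97, 62 and 75 counts in CKO hearts and 138, 46 and 59 in CTR hearts, so that CTR 1 was the highest library and CTR 2 the lowest. Its log2 fold change of 0.02 (SE 0.35, adjusted p = 0.987) stood beside those of Hoxa4 and Hoxa5, which lie within its annotated span. Hoxa9, a gene of blood progenitors and the one posterior gene tested, had 16, 10 and 1 counts in CKO and 4, 12 and 5 in CTR hearts (0.43, SE 0.84, adjusted p = 0.855). Left out by the filter were Hoxa6 (2 counts in all), Hoxa7 (13) and Hoxa10 (10).

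Hoxb4, known for its part in blood stem cells, had the highest total of the family, 606 counts. Its level was 3.37, 2.21 and 3.13 CPM in CKO 1 to 3, and 1.81, 2.21 and 3.39 CPM in CTR 1 to 3. CTR 3 was the highest library of all and the groups overlapped (log2 fold change 0.25, SE 0.27, adjusted p = 0.709). Hoxb3 had 62, 34 and 55 counts in CKO hearts, against 46, 22 and 40 in CTR hearts (0.55, SE 0.37, adjusted p = 0.486), and in each group the library numbered 2 was the lowest. Its antisense partner Hoxb3os covers 52.9% of the Hoxb3 exon bases and 27.3% of those of Hoxb2, and without strand their reads cannot be told apart. Hoxb2, a hindbrain gene, had 0.756 ± 0.278 CPM in CKO and 0.686 ± 0.167 CPM in CTR hearts (0.14, SE 0.45, adjusted p = 0.919). Hoxb5 had 14, 0 and 10 counts in CKO and 14, 6 and 10 in CTR hearts (-0.25, SE 0.80, adjusted p = 0.920), with the 0 in CKO 2, for which a limit of 3 counts is 0.0872 CPM. Of the Hoxb genes left out by the filter, Hoxb1, whose protein acts in the hindbrain and in heart progenitors, had 4, 0 and 1 counts in CKO and 12, 0 and 0 in CTR hearts. Hoxb6 had 3, 0 and 8 in CKO and 1, 0 and 0 in CTR hearts. Hoxb7, Hoxb8 and Hoxb9 had 1, 10 and 34 counts in all.

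Hoxc5, a gene of the lower neck and upper trunk, was the third Hox gene with an unadjusted p under 0.05 and was not called. It had 31, 6 and 25 counts in CKO 1 to 3, and 10, 11 and 3 in CTR 1 to 3. CKO 2 lay inside the CTR range, so the groups overlapped (log2 fold change 1.43, SE 0.67, adjusted p = 0.276). Hoxc4 had 40, 20 and 14 counts in CKO hearts and 30, 7 and 8 in CTR hearts (0.79, SE 0.60, adjusted p = 0.554), with the library numbered 1 highest in each group. Hoxc6 was left out by the filter with 8, 0 and 2 counts in CKO hearts, against 9, 22 and 5 in CTR hearts, and Hoxc13, a hair follicle gene, with 1, 2 and 4 in CKO hearts, against 0, 0 and 1 in CTR hearts. The annotated spans of Hoxc5 and Hoxc6 overlap, and 5.37% of the Hoxc5 exon bases are shared with Hoxc10.

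Hoxd3, which shapes the first neck vertebra in the mouse, differed least between groups. It had 22, 19 and 30 counts in CKO hearts and 30, 20 and 25 in CTR hearts (log2 fold change -0.01, SE 0.44, adjusted p = 0.995). Hoxd8 had 22, 18 and 2 counts in CKO and 3, 15 and 4 in CTR hearts (0.99, SE 0.80, adjusted p = 0.581), so CKO 3 was the lowest of all and CTR 2 stood near the higher CKO libraries. Hoxd4 was left out by the filter with 2, 1 and 0 counts in CKO and 21, 0 and 7 in CTR hearts. Its exons share 39.1% of their bases with Gm28230, a transcript model that joins Hoxd3 and Hoxd4 and covers 53.1% of the Hoxd3 exon bases. Gm28230 itself had 5, 0 and 0 counts in CKO hearts and 12, 0 and 0 in CTR hearts. Hoxd9 had 30 counts in all, Hoxd10 had 2 and Hoxd13, a gene of the digits, had 1.

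**Figure D3:**
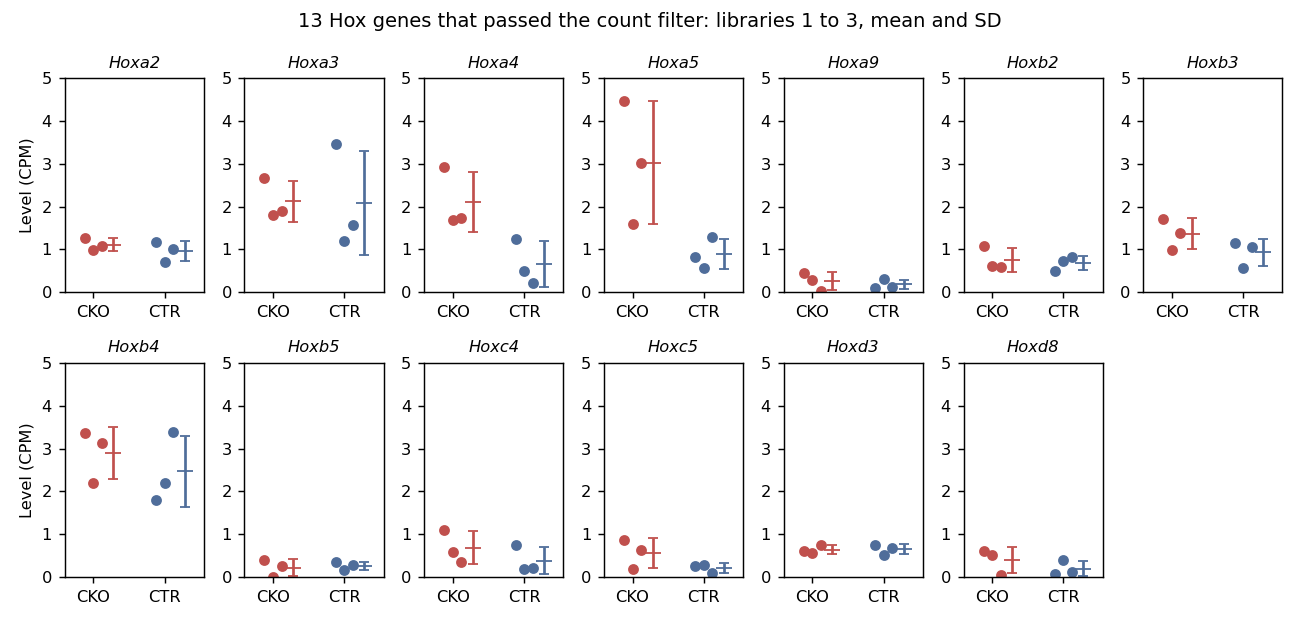
Level in CPM of 13 tested Hox genes in each CKO library and each CTR library (points, libraries 1 to 3 left to right), with the mean and SD of each group beside them. Only Hoxa4 and Hoxa5 have all 3 CKO points above all 3 CTR points.

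**Figure D4:**
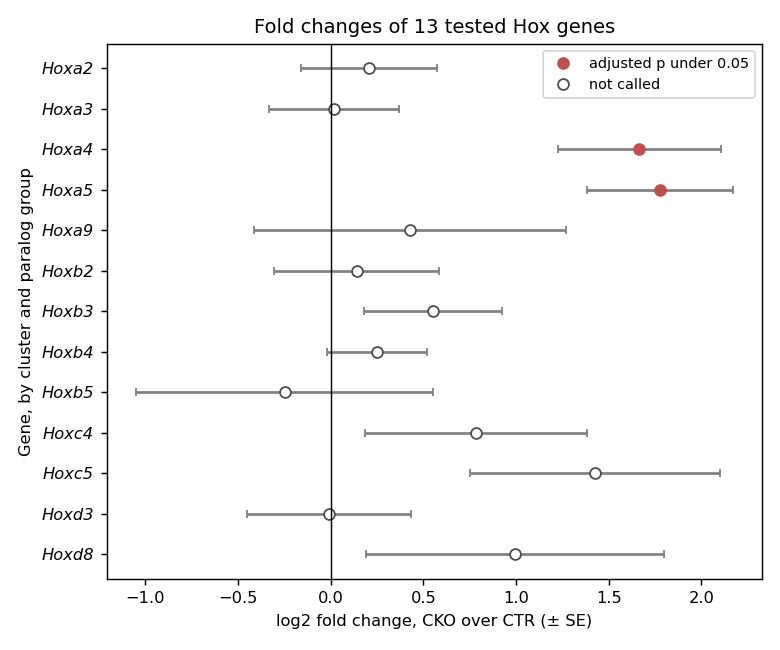
Log2 fold change (CKO over CTR) with its SE for 13 tested Hox genes, filled where the adjusted p was under 0.05. Hoxa5 (1.77) and Hoxa4 (1.67) are the filled points, Hoxc5 (1.43) follows, and Hoxb5 and Hoxd3 lie below 0.

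Per kilobase of annotated exon, the order of the levels differed between groups. In CKO hearts Hoxa5 had the highest level, 1.62 ± 0.765 CPM per kilobase, followed by Hoxa4 (1.33 ± 0.439) and Hoxb4 (1.13 ± 0.239), and these neighbours differed by less than the larger of their SDs. In CTR hearts Hoxb4 was the highest, at 0.962 ± 0.321 CPM per kilobase, and Hoxa2 (0.544 ± 0.137), Hoxa5 (0.476 ± 0.192) and Hoxa4 (0.410 ± 0.338) were the next highest of the genes described. These neighbours also differed by less than the larger of their SDs, except for Hoxb4 and Hoxa2. Hoxa9 was the lowest of the tested genes in both, at 0.0452 ± 0.0378 CPM per kilobase in CKO and 0.0326 ± 0.0204 in CTR hearts.

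Summed over all 28 genes, Hox expression was 23.8, 14.3 and 16.8 CPM in CKO 1 to 3, and 14.9, 10.5 and 12.8 CPM in CTR 1 to 3. CKO 2 fell below CTR 1, so the sums overlapped, with means of 18.3 ± 4.91 CPM in CKO and 12.7 ± 2.22 CPM in CTR hearts. Without Hoxa4 and Hoxa5 the sums were 16.4, 11.0 and 11.98 CPM in CKO hearts, against 12.8, 9.40 and 11.3 CPM in CTR hearts. The Hoxa cluster averaged 10.1 ± 2.71 CPM in CKO and 5.94 ± 1.997 CPM in CTR hearts. The others lay closer together, with Hoxb at 5.59 ± 1.45 CPM in CKO and 4.64 ± 1.03 CPM in CTR hearts, Hoxc at 1.39 ± 0.730 CPM in CKO and 0.907 ± 0.404 CPM in CTR hearts, and Hoxd at 1.20 ± 0.264 CPM in CKO and 1.23 ± 0.117 CPM in CTR hearts. These sums were given no test.

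By paralog group, the sums of groups 4 and 5, which hold Hoxa4 and Hoxa5, were higher in each CKO library than in any CTR library. Group 4 came to 7.45, 4.50 and 5.23 CPM in CKO hearts and 4.34, 2.88 and 4.01 CPM in CTR hearts. Group 5 came to 5.71, 1.77 and 3.92 CPM in CKO hearts and 1.43, 1.01 and 1.63 CPM in CTR hearts. CKO 2 was the lowest CKO library in both and stood just above the highest CTR library. These sums count Hoxa4 and Hoxa5 again and are no separate result. Each other gene of these groups, Hoxb4, Hoxc4, Hoxd4, Hoxb5 and Hoxc5, overlapped between CKO and CTR. Groups 2 and 3 overlapped between CKO and CTR, and so did groups 6 to 10. Group 13 (Hoxc13 and Hoxd13) had 1, 3 and 4 counts in CKO hearts and 0, 0 and 1 in CTR hearts, too few to read an order from. Posterior genes together held 30, 25 and 17 counts in CKO hearts and 5, 34 and 22 in CTR hearts, with both the lowest and the highest library among the controls.

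**Figure D5:**
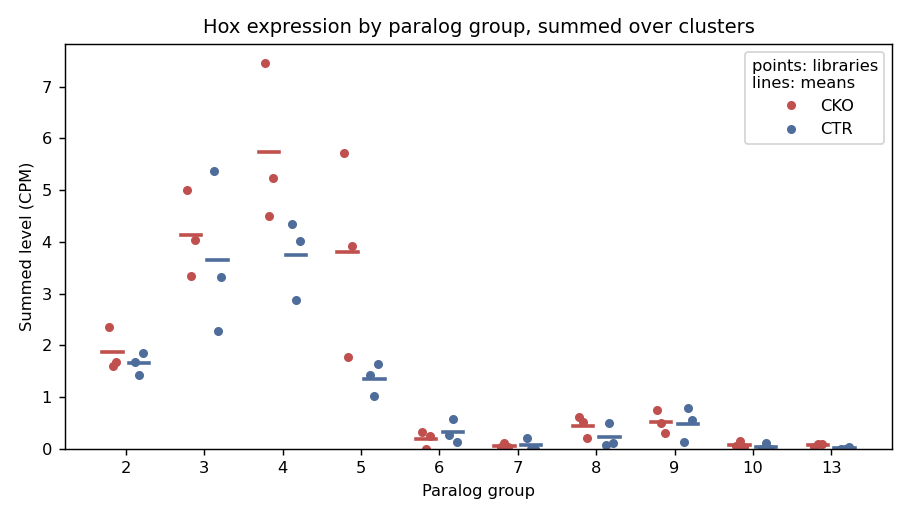
Summed level in CPM of the Hox genes of each paralog group from 2 up, over the 4 clusters, for each CKO library and each CTR library (points) with group means (lines). The CKO points of groups 4 and 5, whose sums include Hoxa4 and Hoxa5, lie above all CTR points of those groups, by a narrow margin for CKO 2.

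Transcripts between the Hox genes and genes beside the clusters were read from the same fit. Of 19 other rows inside the clusters 5 were tested and 0 called, and for these 5 the unadjusted p in edgeR was under 0.05 for 5730596B20Rik alone. That gene, which overlaps Hoxa3 on the opposite strand, had 31, 20 and 11 counts in CKO and 2, 7 and 15 in CTR hearts (log2 fold change 1.43, adjusted p = 0.280). CTR 3 lay above CKO 3. Hoxaas2 had 62, 17 and 48 counts in CKO and 52, 17 and 30 in CTR hearts (0.43, adjusted p = 0.705), and the other 3 were Gm15050 (0.51), Hoxb3os (0.49) and Haglr (-0.58). Hotairm1, an antisense RNA of the Hoxa cluster, was left out by the filter with 17, 6 and 3 counts in CKO and 5, 8 and 19 in CTR hearts. Of the 16 nearest protein-coding genes on the 2 sides of the clusters, 15 were tested. Over all tested genes 3.03% were called higher and 1.07% lower, and of these 15 genes 1 was called. This was Calcoco1 beside Hoxc, lower in CKO hearts at 82.6 ± 7.45 CPM, against 102 ± 9.47 CPM in CTR hearts (-0.30, SE 0.07, adjusted p = 0.0282, called in 2 of 6 fits without 1 library). Evx1, a homeobox gene beside Hoxa, had 15, 2 and 13 counts in CKO and 0, 0 and 12 in CTR hearts (1.36, adjusted p = 0.566). Snx10, Skap2 and Hibadh, also beside Hoxa, had log2 fold changes of 0.02, -0.06 and -0.10 and were not called.

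Of the partners that bind DNA with HOX proteins, Meis2 was lower in CKO hearts. The 9 PBX, MEIS and PKNOX genes summed to 603, 616 and 588 CPM in CKO hearts and 668, 657 and 674 CPM in CTR hearts, with every CKO sum below every CTR sum. Of the 9, 1 was called lower and 0 higher, beside 1.07% and 3.03% of all tested genes. Their median log2 fold change was -0.15. The one called was Meis2, a homeodomain cofactor needed for outflow tract septation in the mouse, with 3951, 3810 and 4123 counts in CKO and 5260, 4825 and 5385 in CTR hearts. Its groups did not overlap, a separation in that direction seen for 10.6% of all tested genes. Its log2 fold change was -0.31 (SE 0.06, adjusted p = 0.00506). It was called in 4 of the 6 fits without 1 library but lost its call with the ribosomal RNA covariate (adjusted p = 0.438). Pbx3 (-0.22, adjusted p = 0.0933) and Meis1 (-0.15, adjusted p = 0.204) followed without a call. Without CKO 2, 2 of the 9 were called lower.

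Among chromatin regulators of Hox clusters, of 28 Polycomb genes 1 was called higher and 2 lower, beside 3.03% and 1.07% of all tested genes. Their median log2 fold change was -0.07. Pcgf5, a subunit of a Polycomb repressive complex, was higher (0.28, SE 0.06, adjusted p = 0.0152), and the chromodomain genes Cbx6 (-0.25, SE 0.06, adjusted p = 0.0223) and Cbx2 (-0.29, SE 0.07, adjusted p = 0.0315) were lower. Each of these 3 was called in 1 of the 6 fits without 1 library, and none with Y-linked expression as a covariate (adjusted p 0.0771 to 0.167). Of 15 Trithorax and KDM6 genes, with a median of -0.08, 0 were called higher and 1 lower, beside the same shares of all tested genes. It was Kdm6a, an X-linked demethylase of the Polycomb mark, at -0.52 (SE 0.11, adjusted p = 0.0234), which was not called without CKO 2 (adjusted p = 0.118) or with Y-linked expression as a covariate (adjusted p = 0.0714). In the same libraries Xist differed as given above.

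Retinoic acid genes gave no call in either direction among 17 tested, by edgeR. Their median log2 fold change was 0.05, and the sum of the list lay between 404 and 408 CPM in CKO hearts and between 405 and 407 CPM in CTR hearts. Rxra and Rara, which encode receptors, were at -0.18 (adjusted p = 0.124) and 0.17 (adjusted p = 0.193). Of 12 genes of the venous pole and posterior second heart field 0 were called in either direction, with a median of -0.04, and without CKO 2 there was 1 called higher. The smallest p-values were those of Tbx5, a chamber and septation factor (0.23, adjusted p = 0.0689), and Shox2, of the sinus node (0.73, adjusted p = 0.148). Shox2 had 1279, 1533 and 1073 counts in CKO hearts and 734, 788 and 949 in CTR hearts, which did not overlap. Such a separation, with CKO above CTR, was seen for 11.5% of all tested genes.

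Other tissues that use Hox genes were examined through their markers. Calls in each tissue list from here on stand beside 3.03% of all tested genes called higher and 1.07% called lower. In the lung and foregut epithelium list 2 of 5 tested genes were called higher and 0 lower, and the list summed to 118 to 119 CPM in CKO hearts, against 73.8 to 90.1 CPM in CTR hearts. These were Krt18 (0.84, adjusted p = 0.00125) and Krt19 (0.59, adjusted p = 0.00165), keratins that the outer layer of the heart also expresses. Krt8, also a keratin, had 22.3, 12.1 and 21.7 CPM in CKO and 8.86, 11.97 and 11.3 CPM in CTR hearts (0.81, adjusted p = 0.142), and the transcription factor gene Irx1 was at -0.37 (adjusted p = 0.591). Most of the list's sum came from the keratins Krt19 (means of 57.1 CPM in CKO and 38.0 CPM in CTR hearts), Krt18 (30.1 and 16.9 CPM) and Krt8 (18.7 and 10.7 CPM). Of the genes that define the lung bud and foregut, Shh had 0, 4 and 0 counts in CKO and 0, 0 and 0 in CTR hearts, Foxa1 2, 0 and 1 in CKO and 1, 0 and 0 in CTR, and Sftpc 0, 0 and 1 in both groups. Foxa2 had 2, 9 and 3 counts in CKO and 4, 0 and 0 in CTR hearts, and the epithelial gene Epcam 25, 1 and 18 in CKO and 28, 6 and 17 in CTR hearts (-0.14, adjusted p = 0.952). Foregut and lung mesenchyme genes had 0 of 7 called in either direction (52.9 to 72.3 CPM in CKO and 50.8 to 67.1 CPM in CTR hearts), although Foxf1 had 16, 7 and 32 counts in CKO and 13, 4 and 4 in CTR hearts (1.44, adjusted p = 0.296). The part of these lists in the Hox results was not tested.

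Neural crest and nerve markers had 1 of 12 called lower and 0 higher, and summed to 52.2 to 55.4 CPM in CKO hearts and 53.3 to 62.3 CPM in CTR hearts. Erbb3, a receptor of glial precursors, was lower in CKO hearts (-0.35, adjusted p = 0.0461, called in 2 of 6 fits without 1 library). Ret, a receptor of migrating neural precursors, and Th, which makes catecholamines, were at 1.25 (adjusted p = 0.159) and 1.19 (adjusted p = 0.237). The part of nerve cells in the Hox results was not tested.

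Of 6 skeletal muscle genes tested, Tnnt3 was higher (1.89, adjusted p = 8.81e-07) and Tnni2 lower (-0.60, adjusted p = 0.00452), and the list summed to 356 to 612 CPM in CKO and 276 to 284 CPM in CTR hearts. Acta1, a skeletal actin gene that the embryonic heart also expresses, made up most of that sum, with 567, 322 and 453 CPM in CKO hearts and 246, 248 and 256 CPM in CTR hearts (0.84, adjusted p = 0.177, not called). Of the factors that define the lineage, Myog was detected, with 18, 19 and 13 counts in CKO and 12, 22 and 31 in CTR hearts (-0.31, adjusted p = 0.835). The others named here were near 0, with Myod1 at 0, 2 and 1 counts in CKO and 0, 0 and 0 in CTR hearts, Pax7 at 0 in every CKO library and 0, 0 and 1 in CTR hearts, and Myf5 at 0, 1 and 0 in CKO and 0, 0 and 0 in CTR hearts. Body wall, limb and cartilage mesenchyme had 1 of 10 called higher (Prrx2, 0.48) and 1 lower (Meox1, -0.33), with sums of 296 to 363 CPM in CKO and 341 to 436 CPM in CTR hearts. The median log2 fold change of this list was -0.21. Meox2 (-0.99, adjusted p = 0.254) and Acan (-0.81, adjusted p = 0.360) were not called. Prrx1, Twist2 and Tbx15 were positive without a call, and the other uncalled genes were negative. Blood progenitor genes had 0 of 10 called higher and 3 lower (Mecom, Cd34 and Gata2), with sums of 243 to 279 CPM in CKO and 291 to 317 CPM in CTR hearts. Cd34 (means of 107 CPM in CKO and 128 CPM in CTR hearts) and Mecom (61.1 and 83.3 CPM) made up most of these sums, which mainly follow these 2 genes. Ptprc (0.51, adjusted p = 0.237), Itga2b (0.48, adjusted p = 0.389) and Runx1 (0.07, adjusted p = 0.932) went the other way without a call, and the other tested genes of the list were negative. Their CTR means were lower, at 2.53 CPM for Ptprc, 17.3 CPM for Itga2b and 2.58 CPM for Runx1. Which cells expressed Cd34, Mecom and Gata2 was not tested, so their lower levels are not a measure of blood progenitors. Epicardial genes had 1 of 8 called higher (Krt19, already named) and 0 lower, with sums of 410 to 456 CPM in CKO and 421 to 445 CPM in CTR hearts. Spinal cord and hindbrain genes gave 0 of 4 called and liver genes 0 of 2, by edgeR. Alb, the liver albumin gene, had 7, 0 and 0 counts in CKO and 0, 0 and 5 in CTR hearts. Of the Cdx and ParaHox list, Evx1 alone was tested, and 8 of its 11 genes are not analysed here. With the ribosomal RNA covariate, Tnnt3, Tnni2, Myl7 and Myh6 kept their calls, while Krt18, Krt19, Prrx2, Meox1, Mecom, Cd34, Gata2, Erbb3, Pcgf5, Cbx2, Cbx6, Kdm6a and Calcoco1 lost theirs (adjusted p 0.214 to 0.869). With the Y-linked covariate, Calcoco1, Erbb3, Gata2, Cbx2, Cbx6, Pcgf5, Meox1, Kdm6a and Myh6 lost their calls (adjusted p 0.0624 to 0.271). Meis2, Krt18, Krt19, Prrx2, Mecom, Cd34, Tnnt3, Tnni2 and Myl7 kept theirs in that fit. Of the blood genes, Mecom was called in 6 of the 6 fits without 1 library, Cd34 in 3 and Gata2 in 1. Without CKO 2, the lung and foregut epithelium list had 3 genes called higher and 1 lower, skeletal muscle 2 higher and 1 lower, blood progenitors 2 lower and spinal cord 1 lower. The part of these tissues in the Hox results was not tested.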

How the data were processed

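The authors deposited 1 table of unnormalized read counts, with gene symbols in rows and the 6 libraries in columns, named as raw counts per the labels. Per the labels' protocols, 500 ng of total RNA entered each poly(A) library, made with a NEBNext Ultra kit for an Illumina HiSeq. Reads were placed on mm10 according to the submitters' processing notes. The sources used here do not give the aligner, the counting program, the use of strand or the treatment of reads shared by paralogs. Of 30619 rows, 30152 matched 1 gene of GENCODE M21, which gave positions.

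All genes were fitted together in edgeR 4.0.16 (R 4.3.3) with filterByExpr (minimum count 10, total 15), TMM factors and a robust quasi-likelihood model with group as its term, two-sided, and 17557 genes were tested. A gene was called at a Benjamini-Hochberg adjusted p under 0.05 over all of them, and n is 3 per group. The procedure was tested on simulated data, where most of the smaller changes at low counts were missed and some calls were false. CPM values use TMM-scaled library sizes. Poisson intervals are exact. Alternatives were RLE, upper-quartile and no scaling, no filter, a filter of 1 CPM in 3 libraries, a non-robust fit, a replicate block, the 2 covariates, leaving out each library, limma-voom (limma 3.58.1), DESeq2 1.42.0 and stricter thresholds. The Hox genes and the context lists were chosen with earlier results of these data known. Named genes were all Hox genes, Trim28, rows within or beside the clusters, up to 4 genes per list by smallest p (up to 2 where none was called), and defining markers near 0. Results of 1 Hox gene and 1 context gene are not reported here. Xist, Ddx3y, Gm28230 and genes beyond that rule were named after their values were seen.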

Additional observations from a re-analysis of the deposited data

How the results depend on the processing

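The 2 Hox calls stood under RLE, upper-quartile and no scaling, with no filter, with the 1 CPM filter, in DESeq2 and when a log2 fold change of 1 or more in size was required. The number called higher was 1 in the non-robust edgeR fit, where Hoxa4 had an adjusted p of 0.0502, and 0 with the ribosomal RNA covariate, with the Y-linked covariate, in limma-voom (adjusted p 0.0536 for Hoxa4 and 0.0527 for Hoxa5) and at an adjusted p under 0.01. It was 0 to 2 over the 6 fits without 1 library, namely 2 without CKO 2, 1 without CTR 1 or CTR 3, and 0 without CKO 1, CKO 3 or CTR 2. The number called lower was 0 in all of these fits. Over all genes, 532 higher and 188 lower calls became 863 and 388 with no filter, 53 and 3 with the ribosomal RNA covariate, 272 and 35 with the Y-linked covariate, 247 and 34 at an adjusted p under 0.01, and 94 and 7 with the fold limit. DESeq2 called 321 lower. Leaving out a library gave 255 to 1012 higher and 39 to 540 lower, the most without CKO 2. Same-numbered libraries did not deviate together (correlations -0.0022, 0.0167 and 0.0014, not always the best with their own number), and with the number as a replicate block 2 Hox genes and 518 genes in all were called higher and 158 lower.

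Several uncalled genes changed sign. Hoxa3 was at -0.0034 with no scaling, -0.86 with the ribosomal RNA covariate and -0.30 with the Y-linked covariate. Hoxa2 was at -0.039 and -0.015 with those covariates, Hoxc4 at -0.69 with the ribosomal RNA covariate and Hoxa9 at -0.061 in limma-voom. Without 1 library the ranges were -0.26 to 0.61 for Hoxa3, -0.29 to 1.05 for Hoxa9, -0.20 to 0.31 for Hoxb2, -0.93 to 0.29 for Hoxb5 and -0.16 to 0.11 for Hoxd3. The cause was not tested. DESeq2 gave no adjusted p for Hoxa9, Hoxb5, Hoxc5 and Hoxd8. Depth limits the family: 3 counts are 0.0753 to 0.0872 CPM, and 14 of the 28 genes were left out by the filter.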
